A study of Mus musculus with 150 samples.

Results

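The 10 genes described here belong to the Wnt pathway and were taken as a named list: the ligands Wnt4 and Wnt7b, the receptors Fzd6, Lrp5, Lrp6 and Lgr4, the transducers Ctnnb1 and Tcf7l2, and the feedback inhibitors Axin2 and Nkd1. All 10 had a row in the bulk table of 24341 genes and in the single-cell tables of 31175 genes. The study compared mouse lung epithelial cells with and without p53, the tumour suppressor encoded by Trp53, to examine how airway progenitor cells behave. Bulk RNA sequencing covered replicates 1, 5 and 6 of the wild type and replicates 7, 8 and 10 of the knockout, 3 libraries each, and single-cell sequencing covered 1 Fluidigm C1 chip of each labelled genotype. Bulk cells of both genotypes came from mice aged 8 to 12 weeks that carried Scgb1a1-CreERTM, a tamoxifen-dependent Cre driven from a club cell gene, and the reporter Rosa26-mT/mG. Their p53 alleles were p53+/+ in the wild type and p53flox/flox in the knockout, although the genotype label of the knockout libraries reads p53-/-. The sort kept cells with the green reporter and EpCAM and without CD31, CD34 or CD45, so it holds the Scgb1a1 lineage and not airway epithelium as a whole. The titles name day 30, whereas the protocol names 70 days after tamoxifen. Single cells were labelled wild type or p53-/-, with tamoxifen at 250 mg/kg in both. The labels do not settle if these cells carried the germline or the induced deletion, nor if they had been in culture.

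Wnt ligands are secreted lipid-modified proteins that bind a Frizzled receptor together with Lrp5 or Lrp6. Binding disables the complex that marks β-catenin, the product of Ctnnb1, for destruction, and β-catenin then joins TCF factors such as Tcf7l2 on target genes. Axin2 and Nkd1 are targets whose products dampen the signal, and Lgr4 binds R-spondins, which protect Frizzled receptors from removal. In the lung, Wnt7b from the epithelium is known for its part in growth of the developing organ, and Axin2 is widely used to mark cells that respond to Wnt, among them a share of alveolar type 2 cells.

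The promoters of Nkd1, Tcf7l2 and Lgr4 are shown because these members had the largest differences of one sign, on both chips, between single cells sorted by their dominant secretory transcript. They run from 250 bases before to 50 bases after a RefSeq start site on GRCm38.p6, 5′ to 3′ on the plus strand. Capitals mark CTTTG, the core of the site bound by TCF factors, or its complement CAAAG.
Nkd1, chr8:88527383-88527682: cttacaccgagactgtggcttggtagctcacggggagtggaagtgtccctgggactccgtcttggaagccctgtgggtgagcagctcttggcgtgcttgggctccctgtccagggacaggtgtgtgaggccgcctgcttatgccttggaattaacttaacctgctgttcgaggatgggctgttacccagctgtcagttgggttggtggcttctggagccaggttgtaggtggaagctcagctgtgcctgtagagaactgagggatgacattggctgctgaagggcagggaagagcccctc
Tcf7l2, chr19:55741560-55741859: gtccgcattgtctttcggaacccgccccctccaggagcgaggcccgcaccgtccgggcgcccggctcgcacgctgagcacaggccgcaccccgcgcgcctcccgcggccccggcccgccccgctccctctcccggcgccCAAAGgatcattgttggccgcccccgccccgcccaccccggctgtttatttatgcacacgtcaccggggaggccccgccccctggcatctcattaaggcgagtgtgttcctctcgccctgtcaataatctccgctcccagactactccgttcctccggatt
Tcf7l2, chr19:55895071-55895370: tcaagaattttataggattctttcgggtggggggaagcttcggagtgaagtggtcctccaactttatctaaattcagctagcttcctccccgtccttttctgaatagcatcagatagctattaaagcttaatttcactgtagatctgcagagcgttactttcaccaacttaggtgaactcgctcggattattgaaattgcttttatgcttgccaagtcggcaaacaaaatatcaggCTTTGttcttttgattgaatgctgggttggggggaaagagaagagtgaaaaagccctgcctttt
Lgr4, chr2:109917397-109917696: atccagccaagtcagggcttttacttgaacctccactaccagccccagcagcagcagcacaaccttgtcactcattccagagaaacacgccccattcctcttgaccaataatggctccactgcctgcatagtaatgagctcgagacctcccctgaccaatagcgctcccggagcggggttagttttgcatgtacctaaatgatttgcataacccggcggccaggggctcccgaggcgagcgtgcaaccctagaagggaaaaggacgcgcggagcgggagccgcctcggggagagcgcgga
The Nkd1 window and the second Tcf7l2 window lie inside the gene spans that the bulk table gives. Of the 8 windows found for 6 of the 10 genes (Axin2, Ctnnb1, Lgr4, Nkd1, Tcf7l2 and Wnt4), the longer letters CTTTGA, searched on both strands, were in 0, against 16% of 32851 promoter windows of that length. The shorter CTTTG, which CTTTGA contains, was in 2 of the 8, both of Tcf7l2, against 53.9% of all windows. It starts at base 140 of the first, as CAAAG, and at base 237 of the second. A match of letters is a description and no sign of binding.

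Trp53 was lower in every bulk knockout library (7.56 to 9.98 FPKM, a level scaled to transcript length and library size) than in any wild-type library (16.6 to 22.2 FPKM). In single cells it ran against the labels: Trp53 was detected, at 1 TPM (a cell's transcript share scaled to length) or more, in 16 of 61 cells labelled knockout and in 4 of 66 cells of the wild type. Library depth differed between the bulk groups. Steps in the low FPKM values put it at about 40800000, 32800000 and 20400000 fragments in wild-type replicates 1, 5 and 6, and at about 11900000, 23000000 and 5800000 fragments in knockout replicates 7, 8 and 10. Wild-type replicate 1 stood apart from the other libraries. Its summed club cell markers came to 27399 FPKM against 61845 to 91638 FPKM elsewhere, and its alveolar type 2 markers to 5654 FPKM against 1355 to 2127 FPKM. Among the marker lists of other cell types, basal markers stayed under 1 FPKM in every library, 4 of 4. Endothelial markers summed to 101 to 130 FPKM in wild-type and 73.9 to 112 FPKM in knockout libraries, with Pecam1, Cdh5 and Cldn5 under 1 FPKM throughout. Fibroblast and smooth muscle markers summed to 31.3 to 75.4 FPKM in wild-type and 23.3 to 25.1 FPKM in knockout libraries, with no overlap and 6 of 6 means lower in knockout, while Pdgfra and Acta2 were under 1 FPKM in every library.

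In bulk, no Wnt gene passed the test of genotype. On log2(FPKM + 1), 0 of the 9 members that passed the filter on low values had a limma adjusted p under 0.05, against 0.00836% of the 11957 genes tested. At an unadjusted p under 0.05 there was 1, Wnt4, against 13.1% of all genes. The knockout and wild-type libraries did not overlap for 3 of the 9, Wnt4 higher in knockout and Ctnnb1 and Nkd1 lower, against 19.3% of all genes. The median log2 fold change over the 9 was -0.03, beside 0.01 over all genes. Axin2 did not pass the filter, which asked for 1 FPKM in at least 3 libraries.

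**Figure D1:**
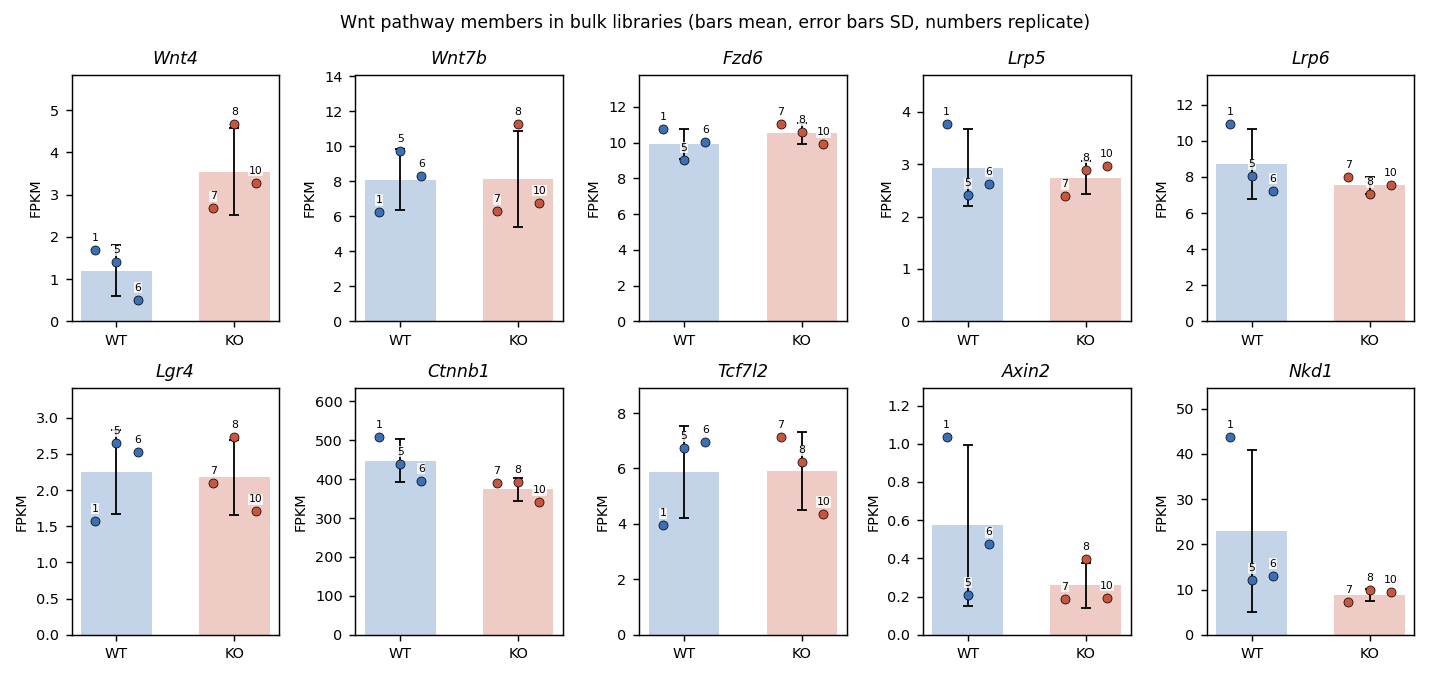
FPKM of the 10 Wnt genes in each bulk library, 1 panel per gene with its own axis from 0; points are libraries with their replicate number, bars the group means and error bars the SD (n = 3 each). Wnt4 is higher in all 3 knockout libraries, and wild-type replicate 1 stands above the other libraries for Nkd1 and Axin2.

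Wnt4, a ligand that in many tissues signals without β-catenin, was the only member with all knockout libraries above the wild type. It lies on chromosome 4 from 137277635 to 137299501 (mm10). Wild-type replicates 1, 5 and 6 held 1.70, 1.40 and 0.519 FPKM, and knockout replicates 7, 8 and 10 held 2.68, 4.67 and 3.28 FPKM. Every knockout library was higher than every wild-type library, with a mean of 3.54 ± 1.02 against 1.21 ± 0.613 FPKM (SD, n = 3 each). On the log2 scale the fold change came to 1.06 ± 0.264 (SE; limma adjusted p = 0.308, unadjusted p = 0.0052). An exact two-sided permutation test gave p = 0.1, its lower limit with 3 libraries a side. Ciliated cells move mucus along the airway, and their markers were also higher in knockout, 8 of 8 by their means. The sum of these markers ran from 241 to 421 FPKM in knockout libraries and from 59.5 to 255 FPKM in the others, wild-type replicate 1 being the high one; their part in the Wnt4 difference was not tested, and fewer cells of a type and less RNA per cell cannot be told apart in bulk. Without wild-type replicate 1 the Wnt4 fold change was 1.23 (limma adjusted p = 0.0561).

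Wnt7b lies on chromosome 15 from 85535437 to 85593708, where an antisense gene, AU022754, overlaps it; the libraries are not stated to keep strand. Wild-type libraries held 6.25, 9.71 and 8.31 FPKM and knockout libraries 6.30, 11.3 and 6.77 FPKM. The groups covered much the same range, and the log2 fold change was -0.02 ± 0.236 (SE; limma adjusted p = 0.983).

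The receptors lay close together between genotypes. Fzd6, a Frizzled receptor known for planar cell polarity (chromosome 15, 39006280 to 39038190), had 10.7, 9.05 and 10.01 FPKM in wild-type and 11.05, 10.6 and 9.91 FPKM in knockout libraries, a log2 fold change of 0.08 (limma adjusted p = 0.80). Lrp6 (chromosome 6, 134446478 to 134566913), the co-receptor needed in most embryonic Wnt signalling, had 10.9, 8.03 and 7.24 FPKM in wild-type and 8.01, 7.05 and 7.54 FPKM in knockout libraries. Its fold change of -0.17 (limma adjusted p = 0.686) became -0.02 without wild-type replicate 1, whose level was the highest of the 6. Lrp5, its paralogue known for bone mass (chromosome 19, 3584825 to 3686564), was lower throughout, with 3.77, 2.40 and 2.63 FPKM in wild-type and 2.38, 2.89 and 2.96 FPKM in knockout libraries. Every library had more Lrp6 than Lrp5 per length, and the ranges of the co-receptors, 7.05 to 10.9 FPKM and 2.38 to 3.77 FPKM, did not meet. Lgr4 (chromosome 2, 109917647 to 110014257) had 1.58, 2.64 and 2.52 FPKM in wild-type and 2.09, 2.73 and 1.71 FPKM in knockout libraries, with overlapping groups and a log2 fold change of -0.03.

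Ctnnb1 was by far the most abundant of the 10. It lies on chromosome 9 from 120933400 to 120960507, where other genes overlap it, Ulk4 on the opposite strand among them. Wild-type libraries held 508, 439 and 396 FPKM and knockout libraries 389, 392 and 341 FPKM. The knockout libraries were all lower, by a small margin against wild-type replicate 6, and the log2 fold change was -0.26 ± 0.162 (SE; limma adjusted p = 0.545). Tcf7l2 (chromosome 19, 55741810 to 55933655), the TCF factor of many epithelia, had 3.96, 6.73 and 6.94 FPKM in wild-type and 7.13, 6.23 and 4.36 FPKM in knockout libraries. Its low values came from 1 library of each genotype, and its log2 fold change was 0.02 ± 0.236 (SE).

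The feedback inhibitors shared a high value in wild-type replicate 1. Nkd1, whose product binds Dishevelled proteins (chromosome 8, 88521344 to 88594887), had 43.7, 12.02 and 13.1 FPKM in wild-type and 7.32, 9.85 and 9.39 FPKM in knockout libraries. All knockout libraries were lower, but most of the difference in means came from the 1 library. The log2 fold change came to -1.04 ± 0.455 (SE; limma adjusted p = 0.391), and to -0.47 ± 0.140 without wild-type replicate 1 (SE; limma adjusted p = 0.149). The groups still did not overlap without that library. Alveolar type 2 markers were highest in that library too: 6 of 6 measured had a lower mean in knockout, and together they made up 5654, 2058 and 2127 FPKM in the wild-type libraries against 1355 to 1642 FPKM in the knockout. Immune markers, led by Cd74, which alveolar type 2 cells also express, summed to 956 to 2209 FPKM in the wild-type and 589 to 773 FPKM in the knockout libraries, with 6 of 6 means lower. Fibroblast and smooth muscle markers, given above, were also lower in every knockout library and highest in wild-type replicate 1. The part of any of these lists in the Nkd1 values was not tested.

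**Figure D2:**
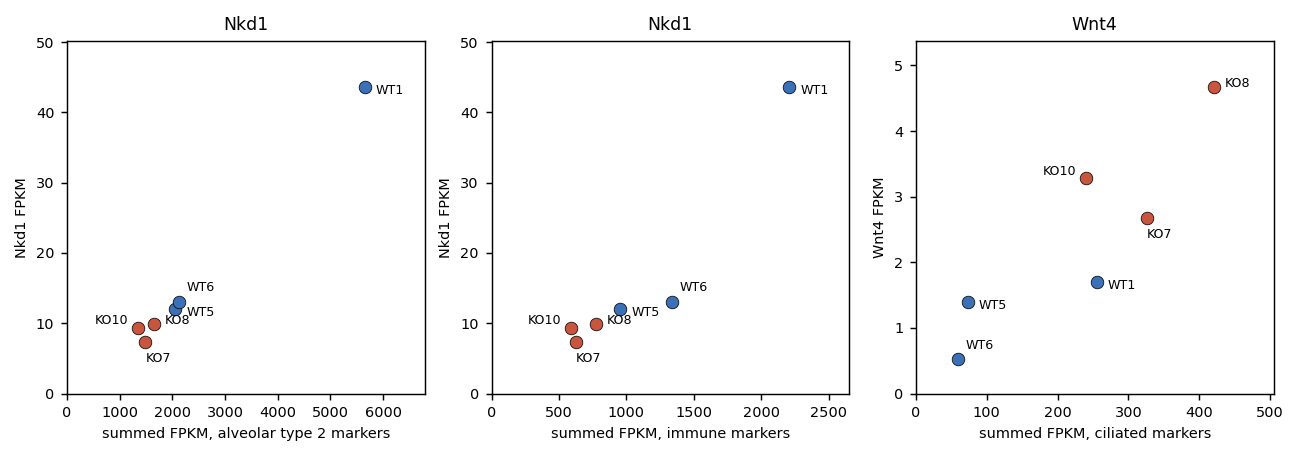
FPKM of Nkd1 against the summed FPKM of alveolar type 2 markers and of immune markers, and of Wnt4 against ciliated markers, with 1 point per bulk library. Wild-type replicate 1 has the highest Nkd1, alveolar type 2 and immune values of the 6 libraries.

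Axin2, the classic readout of the pathway (chromosome 11, 108920349 to 108950781), was near the limit of these libraries. Wild-type libraries held 1.03, 0.210 and 0.474 FPKM and knockout libraries 0.188, 0.394 and 0.193 FPKM, and the groups overlapped. Over its longest annotated transcript these values stand for about 180, 29 and 41 fragments in wild type and about 10, 39 and 5 in knockout. An exact two-sided permutation test of the log2 values gave p = 0.2. With 3 libraries a side this test cannot go below p = 0.1, so it cannot decide if Axin2 differed.

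Ordered by mean level over the 6 libraries, the genes ran Ctnnb1, Nkd1, Fzd6, Lrp6, Wnt7b, Tcf7l2, Lrp5, Wnt4, Lgr4 and Axin2. Neighbours in that order were separated in all libraries at 3 places, between Ctnnb1 and Nkd1, between Tcf7l2 and Lrp5 and between Lgr4 and Axin2. The other neighbours overlapped in their ranges.

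The rest of the pathway was read from a list of 81 further genes, of which 48 passed the filter. None passed the limma adjusted threshold, while 5 were higher and 7 lower in knockout at an unadjusted p under 0.05, against 7.04% and 6.06% of all genes. The libraries did not overlap for 3 genes higher and 9 lower in knockout, against 9.04% and 10.2% of all genes. The median log2 fold change was -0.05. By role, 6 of 19 ligand and secretion genes, 9 of 14 receptors, 6 of 18 extracellular modulators, both receptor turnover genes, 9 of 10 relay genes, 11 of 13 nuclear genes and 5 of 5 targets passed the filter.

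The role lists did not move one way. Of the 5 targets tested, Myc and Ccnd1 had positive fold changes, Sp5 and Tnfrsf19 negative ones and Cd44 one near 0, and only Sp5 had libraries that did not overlap. The 6 extracellular modulators split 3 and 3, with the inhibitors Wif1 (log2 fold change 1.18) and Kremen1 (0.49) on the positive side and Notum as the 1 with no overlap. Fold changes were negative for 6 of 9 receptors and 8 of 11 nuclear genes, and positive for 6 of 9 relay genes and 3 of 6 ligand and secretion genes. Notum, an enzyme that strips the lipid from Wnt ligands, had 12.9, 6.09 and 8.32 FPKM in wild-type and 4.42, 4.62 and 3.27 FPKM in knockout libraries, a log2 fold change of -0.94 (limma adjusted p = 0.308). Sp5, a transcription factor and direct target, had 6.81, 2.93 and 3.23 FPKM in wild-type and 1.21, 2.43 and 0.99 FPKM in knockout libraries, a log2 fold change of -1.04 (limma adjusted p = 0.316). For both, wild-type replicate 1 was again the highest library. Znrf3 and Rnf43, ubiquitin ligases that remove Frizzled receptors, had log2 fold changes of -0.35 and -0.40 with no overlap, and were also highest in that library, at 5.29 and 9.92 FPKM.

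Receptor, relay, nuclear and secretion genes were also among those of smallest p. Dvl2, a Dishevelled relay protein, had 8.89, 8.16 and 7.79 FPKM in wild-type and 5.87, 5.69 and 5.66 FPKM in knockout libraries, a log2 fold change of -0.46 ± 0.0977 (SE; limma adjusted p = 0.288). The receptor Fzd7 averaged 13.4 ± 3.70 FPKM in the wild type, again highest in replicate 1 at 17.7 FPKM, and 7.91 ± 0.729 in the knockout, and Tcf7l1, a TCF factor that mostly represses, at 28.5 ± 4.38 and 19.4 ± 2.33 FPKM (SD, n = 3 each). Ryk, a Wnt receptor outside the Frizzled family, was at 23.9 ± 2.54 and 18.5 ± 1.53 FPKM. Its mean over all 6 libraries was the highest of the receptors listed, although Lgr6 exceeded it in wild-type replicate 5, in knockout replicate 8 and in the knockout mean (19.4 ± 8.08 FPKM, SD, n = 3). Higher in every knockout library were Porcn, the enzyme that adds the lipid to Wnt ligands, with a mean of 42.8 ± 6.91 in the wild type and 59.7 ± 8.17 FPKM in the knockout, and Tle3, a co-repressor, at 5.26 ± 0.657 and 7.83 ± 1.42 FPKM. The most abundant genes of the other roles, Wls, Kremen1, Rnf43, Csnk1a1, Tle1 and Ccnd1, had overlapping libraries apart from Rnf43. Without wild-type replicate 1, 3 of the 48 tested genes of the list passed the adjusted threshold, against 408 of all 11957 genes tested. Tcf7l1 was among the 3 (log2 fold change -0.65, limma adjusted p = 0.0334).

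**Figure D3:**
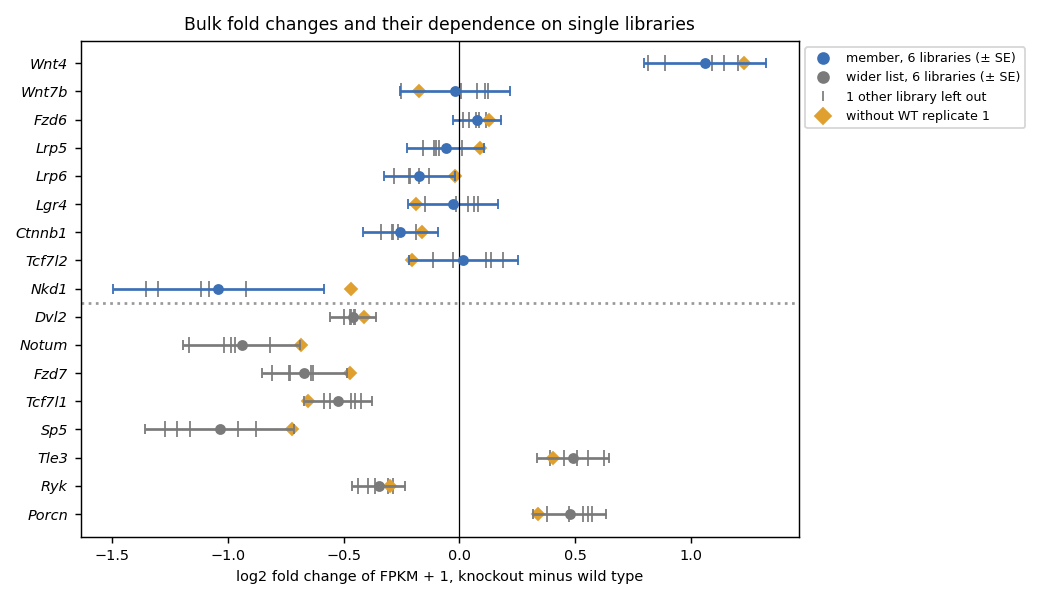
Log2 fold change of FPKM + 1, knockout minus wild type, for the 9 tested Wnt genes (above the dotted line) and the 8 genes of the wider list with the smallest p; circles and bars are the estimate and its SE over 6 libraries, and ticks and diamonds the estimates with 1 library left out. The Nkd1 estimate moves from -1.04 to -0.47 without wild-type replicate 1, and Wnt4 stays above 0 in every case.

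Single cells were described by genotype and by the more abundant of the transcripts Scgb1a1, of club cells, and Sftpc, of alveolar type 2 cells. Scgb1a1-dominant were 49 of the 66 cells kept on the wild-type chip and 46 of the 61 on the chip labelled knockout, which left 17 and 15 Sftpc-dominant cells. Scgb1a1 and Sftpc lay within 4 times of each other in 6 wild-type cells and 15 cells labelled knockout. A median of 3154 genes per cell was detected in Scgb1a1-dominant wild-type cells and 2633 in Sftpc-dominant ones, against 3824 and 3196 on the chip labelled knockout. Each genotype was 1 chip, so no test was made, and intervals cover counting error only. Cells labelled knockout had a median share of spike-in RNA of 6.28%, against 13.2% in wild type. TPM here counts the spike-in in the total, so it understates shares of the cell's own RNA where spike-in is high. Differences between chips were also read with TPM rescaled without the spike-in. Beyond that scaling, the part of the spike-in difference in the values compared was not tested. Members were detected in few cells for the most part: the median cell had 3 of the 10 at 1 TPM or more in every group except Scgb1a1-dominant cells labelled knockout, with 3.5.

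Nkd1 and Tcf7l2 differed between the cell states in opposite directions on both chips. A difference of at least 1 in mean log2(TPM + 1) on both chips was found for 1 of 6 countable members toward Sftpc-dominant cells, against 1.42% of 8780 genes, and for 1 toward Scgb1a1-dominant cells, against 5.05%. On the wild-type chip alone it was 1 of 7 each way, against 4.08% and 10.1% of genes, and on the chip labelled knockout 1 of 9 and 2 of 9, against 4.43% and 11% of genes. Nkd1 was detected in 8 of 17 Sftpc-dominant wild-type cells (47.1%, exact binomial 95% interval 22.98% to 72.2%) and in 1 of 49 Scgb1a1-dominant ones (2.04%, 0.0517% to 10.9%). On the chip labelled knockout the counts were 6 of 15 and 4 of 46, and the intervals of those shares overlapped (16.3% to 67.7% and 2.42% to 20.8%). The mean of log2(TPM + 1) was higher in Sftpc-dominant cells by 1.75 on the wild-type chip and by 2.01 on the other. Its levels in these cells ran from 0 through a median of 0.53 TPM to 139 TPM in wild type, and from 0 through 0.13 TPM to 190 TPM on the chip labelled knockout.

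Tcf7l2 was mostly a transcript of Scgb1a1-dominant cells. It was detected in 30 of 49 such wild-type cells (61.2%, 46.2% to 74.8%) and in 2 of 17 Sftpc-dominant cells (11.8%, 1.46% to 36.4%). On the chip labelled knockout it was detected in 32 of 46 and in 4 of 15, with intervals that just overlapped (54.2% to 82.3% and 7.79% to 55.1%). Levels in Scgb1a1-dominant cells ran from 0 through a median of 8.68 TPM to 982 TPM in wild type and from 0 through 20.7 TPM to 967 TPM in cells labelled knockout. In Sftpc-dominant cells the highest value was 2.39 TPM in wild type and 80.9 TPM on the chip labelled knockout. The mean differences, Sftpc-dominant minus Scgb1a1-dominant, were -3.40 and -2.31 on the log2 scale.

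**Figure D4:**
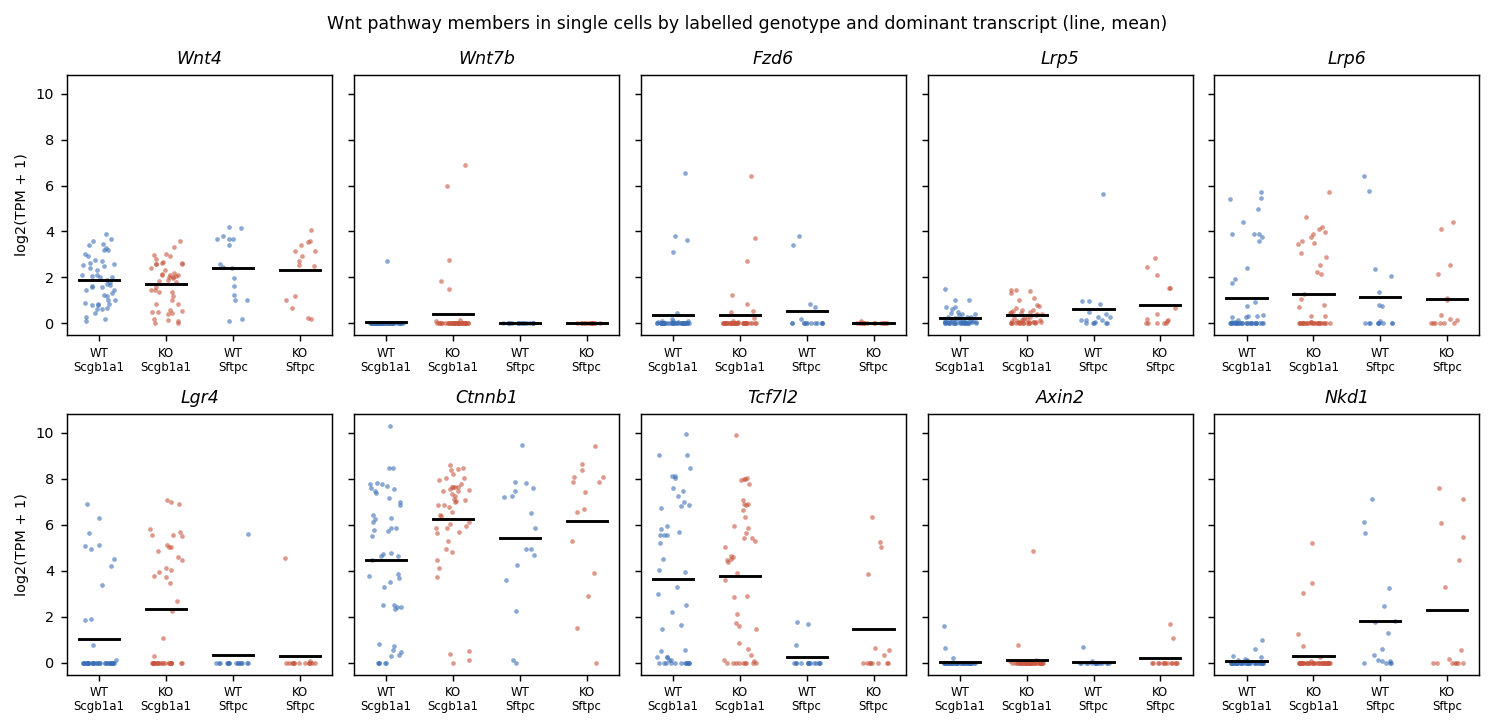
Log2(TPM + 1) of the 10 Wnt genes in each single cell, by labelled genotype and dominant transcript; points are cells and lines the mean of the group. Nkd1 is above 0 in a larger share of Sftpc-dominant than of Scgb1a1-dominant cells on both chips. The counts are 13 of 17 against 8 of 49 in wild type and 8 of 15 against 7 of 46 in cells labelled knockout. Tcf7l2 is above 0 in a larger share of Scgb1a1-dominant than of Sftpc-dominant cells. The counts are 37 of 49 against 3 of 17 in wild type and 37 of 46 against 7 of 15 in cells labelled knockout.

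Lgr4 had a higher mean in Scgb1a1-dominant cells on both chips, by at least 1 on the chip labelled knockout. It was detected in 11 of 49 Scgb1a1-dominant and 1 of 17 Sftpc-dominant wild-type cells, and in 23 of 46 and 1 of 15 cells labelled knockout. The mean differences between states were -0.71 and -2.03. In Scgb1a1-dominant cells, 8 of 11 wild-type cells with Lgr4 also had Tcf7l2, as had 20 of 23 cells labelled knockout. With or without Lgr4, Tcf7l2 was in 30 of 49 and 32 of 46 Scgb1a1-dominant cells.

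Ctnnb1 was found in most cells of every group: 38 of 49 and 15 of 17 in wild type, 42 of 46 and 14 of 15 on the chip labelled knockout. Its median in Scgb1a1-dominant cells was 25.2 TPM in wild type and 121 TPM in cells labelled knockout, with highest values of 1271 and 388 TPM. Ctnnb1 was the only 1 of 7 countable members past a difference of 1 between genotypes over all cells, at 1.49, against 8.03% of 9486 genes higher in cells labelled knockout. Lower by that size were 0 members and 0.137% of genes. The median difference of all genes was 0.25, toward the cells labelled knockout. With TPM rescaled without the spike-in, Ctnnb1 was again the only member past that size, and 694 of 9657 genes were higher in cells labelled knockout. In Scgb1a1-dominant cells 2 of 7 countable members, Ctnnb1 and Lgr4, passed that size (1.75 and 1.30, against 8.32% of 10014 genes) and 0 members were lower by it, against 0.22%. Among such cells with 2000 to 5000 detected genes Ctnnb1 was at 1.55, and Lgr4 fell short of the size at 0.80. The secretoglobin Scgb3a1 reached 1000 TPM in 18 of 49 wild-type and 29 of 46 labelled knockout cells of this state. Below that level Lgr4 had means of 0.51 and 0.87 and Ctnnb1 of 4.44 and 5.11, wild type first. At or above it Lgr4 had 1.95 and 3.19 and Ctnnb1 4.58 and 6.90. The part of this mix in the genotype differences was not tested. In Sftpc-dominant cells 1 of 8 countable members, Tcf7l2, passed that size (1.22, against 14.8% of 9697 genes), and 0 were lower, against 2.55%. Ctnnb1 was at 0.77 there, and at 0.03 in such cells with 2000 to 5000 detected genes. Bulk Ctnnb1 values ran the other way, at lower levels in knockout, and that fold change did not pass the test.

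Wnt4 was at a low level nearly everywhere. It was above 0 in 125 of 127 cells, yet its highest value was 17.4 TPM, with the spike-in counted in the total. At 1 TPM or more it was in 37 of 49 and 15 of 17 wild-type cells and in 33 of 46 and 12 of 15 cells labelled knockout. The difference between genotypes over all cells was -0.17, so the higher bulk level in knockout had no counterpart of that sign in the single cells. With TPM rescaled without the spike-in it was -0.35. Wild-type cells 27, 28 and 53, with 79.7%, 78.3% and 69.6% spike-in RNA, still held Wnt4 at 3.13, 8.03 and 12.9 TPM. The share of Wnt4 in these cells' own RNA was higher than those values show. Ciliated markers had a mean log2(TPM + 1) of 0.08 over all wild-type cells and 0.27 over those labelled knockout. Apart from that rescaling, the part of spike-in share or of ciliated markers in this comparison was not tested. Wnt7b was in 1 of 49 and 5 of 46 Scgb1a1-dominant cells. In Sftpc-dominant cells it was in 0 of 17 and 0 of 15, which allows shares of up to 17.6% and 20% at 3 cells of the total, and of up to 19.5% and 21.8% by the exact binomial 95% interval.

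Among the receptors, Lrp6 was found in more cells than Lrp5 at 1 TPM or more, but the order turned with the threshold: above 0 TPM, Lrp5 outnumbered Lrp6 by 48 to 31 among the 66 cells of the wild type, and by 49 to 34 among the 61 on the other chip. Lrp6 was in 13 of 49 and 5 of 17 wild-type cells and in 17 of 46 and 6 of 15 cells labelled knockout. Lrp5 was in 3 of 49, 1 of 17, 6 of 46 and 5 of 15 in the same order. In Scgb1a1-dominant cells its highest values were 1.79 and 1.77 TPM, and in Sftpc-dominant cells 49.1 and 6.25 TPM. Fzd6 was in 4 of 49, 2 of 17, 4 of 46 and 0 of 15. Axin2 was in 1 of 49, 0 of 17, 1 of 46 and 2 of 15 cells, with 1 value above 10 TPM, so it marked no state at this depth.

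**Figure D5:**
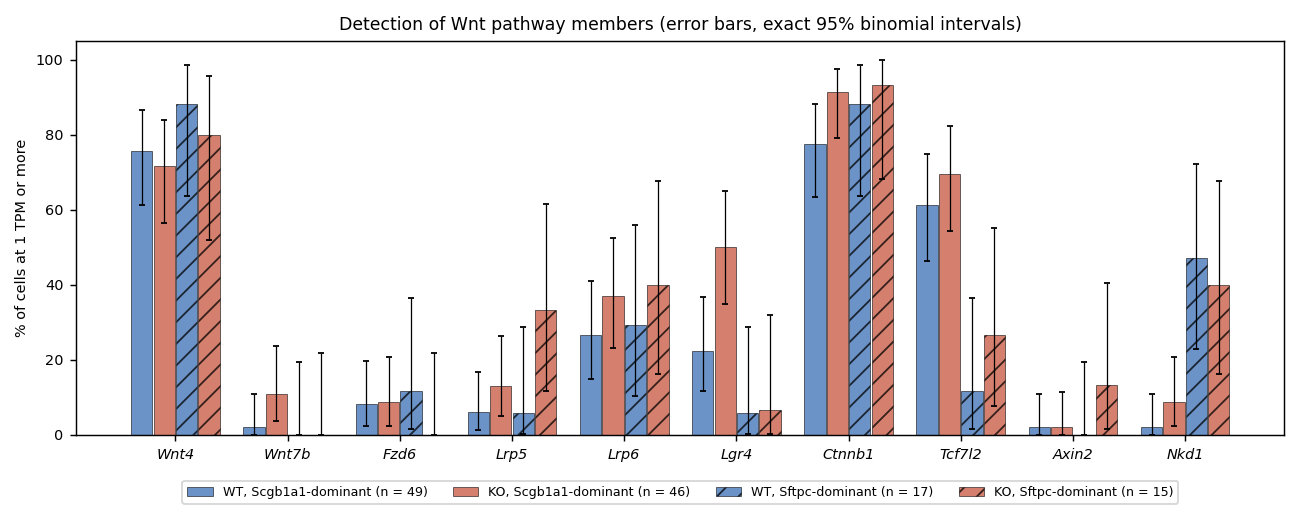
Share of cells at 1 TPM or more for each of the 10 Wnt genes, by labelled genotype (colour) and dominant transcript (hatching), with exact 95% binomial intervals. The intervals of Nkd1 in wild-type cells, 0.0517% to 10.9% and 22.98% to 72.2%, do not meet between states, and on the chip labelled knockout they overlap.

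The state pattern was also read in cells with 2000 to 5000 detected genes and with a state set by other markers. The window is broad: it kept 51 of the 66 wild-type cells and 56 of the 61 labelled knockout. Within it, Nkd1 and Tcf7l2 kept a difference of at least 1 on both chips. The other rule took the mean of the other club markers and of the other alveolar type 2 markers. Each mean was standardized over all cells kept, and the higher score set the state, which is a relative ranking. By that rule 9 wild-type cells and 13 cells labelled knockout moved from the Scgb1a1-dominant to the Sftpc-dominant side and 0 the other way. Scgb1a1 still exceeded Sftpc in the cells that moved. Nkd1 and Tcf7l2 again passed on both chips, at 1.18 and 1.41 for Nkd1, and Lgr4 joined them toward the Scgb1a1-dominant side (at least 1 on each chip). The Tcf7l2 differences were smaller under that rule, at -2.08 on the wild-type chip and -1.33 on the other. Its wild-type shares then had overlapping intervals (43.3% to 75.1% and 14.3% to 51.8%), and its highest value on the Sftpc side of that chip was 260 TPM. In every Sftpc-dominant cell of both chips, 4 of 4 basal markers, 5 of 6 immune markers (all but Cd74), 5 of 6 fibroblast and smooth muscle markers and at least 4 of 6 endothelial markers were under 1 TPM. The mean log2(TPM + 1) of the immune list was higher in Sftpc-dominant than in Scgb1a1-dominant cells, at 1.72 against 0.56 in wild type and 1.52 against 0.97 on the other chip. Markers of other lung epithelial types were present in Sftpc-dominant cells: club markers had a mean of 5.203 in wild type and 6.70 on the chip labelled knockout, and alveolar type 1 markers 1.80 and 2.48. Ciliated markers were all under 1 TPM in the wild-type ones, but 2 of 8 were so on the chip labelled knockout, where their mean was 0.47. The part of these markers in the state pattern was not tested.

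Of the 81 further pathway genes, 22 were detected in at least 10% of cells and 25 in no cell. The most widely detected were Gsk3b, Csnk1a1, Cd44, Wls and Ccnd1. Gsk3b, a kinase of the destruction complex, was in 57 of 61 cells labelled knockout and in 52 of 66 in the wild type. Ccnd1, the cell cycle gene that is also a Wnt target, was in 26 of 49 Scgb1a1-dominant and 4 of 17 Sftpc-dominant wild-type cells, and in 38 of 46 and 4 of 15 cells labelled knockout, the same order of states as Tcf7l2.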

How the data were processed

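Gene expression was measured in 6 bulk libraries and in single cells on 2 C1 chips of mouse lung. The authors deposited bulk FPKM values, made with TopHat, Bowtie2 and Cufflinks on mm10, and single-cell TPM values, made on GRCm38 with Bowtie 1.1.1 and RSEM 1.2.20, in a separate table per genotype, per the submitters' processing notes. The sources used here do not name the Cufflinks normalization. The lowest bulk value is 0.01, and 12 genes with marked entries, Scgb1a1 and Sftpc among them, were left out.

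Log2(FPKM + 1) was tested with limma 3.58.1 in R 4.3.3 (trend and robust, two-sided, Benjamini-Hochberg adjustment over all genes, threshold 0.05) in genes that reached 1 FPKM in at least 3 libraries. This scale understates changes of low genes. The fit was tested on simulated data. Separate animals per library are not stated, so p-values reflect library-to-library spread alone, possibly technical. Depth was estimated from 2245 genes with 1 GENCODE vM21 transcript over 1500 bases, as the FPKM step that put most low values (65.8% to 71.0%, against 20% by chance) within 0.1 fragment of a whole number. Fragments are approximate.

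Cells with a debris or valve remark (1 wild type, 3 labelled knockout) or under 1000 genes at 1 TPM (6 and 3) were left out, leaving 66 and 61; 2 knockout samples with no matched column were not analysed here. Differences are of mean log2(TPM + 1), counted by size (at least 1) among genes that 10% or more of the cells of either group held at 1 TPM. Shares have exact binomial 95% intervals; 0 cells allow up to 3 of the total.

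The members and gene lists were chosen with earlier results of these data known. All members are named. From the wider list the text names up to 8 genes of smallest p, the most abundant gene of each role and the 5 most widely detected; Znrf3, Rnf43, Wif1, Lgr6, Myc and Tnfrsf19 were added after their values were seen. Alternatives were the pseudocount, the low-value and cell filters, scaling, limma settings, single libraries left out, the detection threshold and the rule for the cell state. Protein sequences were not used here.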

Additional observations from a re-analysis of the deposited data

Results flagged for a closer look

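The chip labelled knockout had a positive and a negative control prepared off the chip, which enter no comparison. In the positive control 6 of the 10 Wnt genes were at 1 TPM or more: Ctnnb1 at 111 TPM, Lgr4 at 11.4 TPM, Tcf7l2 at 3.78 TPM, Fzd6 at 2.85 TPM, Lrp6 at 2.03 TPM and Wnt7b at 1.48 TPM. In the negative control 0 of the 10 were above 0, and spike-in RNA made up 99.998% of its TPM. Wnt4 was at 0.34 TPM and Nkd1 at 0.4 TPM in the positive control. What drew attention is a signal in a well outside the comparisons that exceeds the negative control. The positive control held 7953 genes at 1 TPM or more, against 2 in the negative control. The excess is therefore not particular to the Wnt genes.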

How the results depend on the processing

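Over all genes, 1 passed the adjusted threshold, against 913 with limma library weights, 3 with no filter on low values, 2 with a pseudocount of 0.1, and 1 to 408 with 1 library left out (408, of them 337 higher in knockout, without wild-type replicate 1). The library weights of wild-type replicates 1, 5 and 6 were 0.236, 4.06 and 0.729, so the weighted wild-type level rested mostly on replicate 5. Among the members the count of 0 became 1 with these weights: Wnt4, log2 fold change 1.005, limma adjusted p = 0.0306 (0.0306 to 0.776 over all alternatives). In the wider list 0 became 6 with library weights and 0 to 3 with 1 library left out. Fold changes near 0 changed sign: with 1 library left out, Wnt7b ran from -0.25 to 0.12, Lrp5 from -0.16 to 0.088, Lgr4 from -0.19 to 0.081 and Tcf7l2 from -0.20 to 0.19; with library weights Lrp5 was at 0.094 and Tcf7l2 at -0.13. The cause was not tested. In single cells 1 member differed between genotypes by size, and 2 (Ctnnb1 and Lgr4) without cells whose Scgb1a1 and Sftpc lay within 4 times; 2 differed between states, and 1 (Tcf7l2) with a pseudocount of 10. The other alternatives kept these single-cell counts within 1.5 times. Depth limits Axin2 above all, with about 5 fragments in the shallowest library, and single-cell shares rest on 15 to 49 cells. No paired analysis was possible because the bulk groups share no replicate numbers and each single-cell genotype is 1 chip.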

Other observations

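Within Scgb1a1-dominant cells, Lgr4 and its relative Lgr6, another R-spondin receptor, were found together with high Scgb3a1, a secretoglobin of upper airway secretory cells; the split at 1000 TPM was chosen after the values were seen. Lgr4 was detected in 8 of 18 wild-type cells with at least 1000 TPM of Scgb3a1 and in 3 of 31 below it, and in 20 of 29 and 3 of 17 cells labelled knockout. Lgr6 was detected in 13 of 18 and 0 of 31 wild-type cells, and in 27 of 29 and 0 of 17 cells labelled knockout. Tcf7l2 did not follow the split, at 11 of 18 and 19 of 31 in wild type and 21 of 29 and 11 of 17 on the other chip. Ctnnb1 was in 15 of 18 and 23 of 31 wild-type cells, and in 29 of 29 and 13 of 17 labelled knockout. Wnt7b was in 0 of 18 and 1 of 31, and in 5 of 29 and 0 of 17. Cells above the split had more detected genes, by median 3327 against 2888 in wild type and 3894 against 3524 on the other chip. The part of this difference in the shares was not tested. In bulk, Lgr6 was lowest in wild-type replicate 1, at 1.87 FPKM, against 12.4 to 28.7 FPKM in the other libraries.

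Few genes share the single-cell pattern of Wnt4. Of 425 genes above 0 TPM in at least 95% of the 127 cells, 11 had a highest value under 20 TPM, Wnt4 among them, and the median highest value of the 425 was 691 TPM. These TPM values count the spike-in in the total, and the pattern was not read on rescaled TPM.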
